A study of Mus musculus with 3 samples.

Results

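miR-182, miR-183 and miR-96 are the 3 microRNAs of a single conserved cluster. They were taken by name, as the rows mmu-miR-182, mmu-miR-183 and mmu-miR-96 without a star, from a qRT-PCR screen of 709 mouse microRNAs. The screen compared 1 sample each of neural stem cells (NSCs) derived from mouse fetal forebrain, mouse embryonic stem cells (ESCs) and mouse embryonic fibroblasts (MEFs), to find microRNAs particular to NSCs. Per the methods, NSCs were grown on Matrigel with basic fibroblast growth factor and platelet-derived growth factor-AA, and the series text says that equal amounts of total RNA were pooled before the PCR. Strain, passage and any feeder layer of the ESCs are not given in the sources used here, and each sample was run 2 times on each plate, as technical repeats.

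A microRNA cluster of this kind is transcribed as 1 long precursor, from which the hairpins are cut and trimmed to mature strands. The mature strand guides a silencing complex to messenger RNAs through its seed, the bases near its 5′ end. The miR-183 cluster is best known from sensory organs, where photoreceptors of the retina and hair cells of the inner ear hold high levels, and changes in the seed of miR-96 cause hearing loss in mice and humans.

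The sequences are shown because the 3 microRNAs are near relatives in sequence as well as neighbours in the genome. All 3 names matched the RefSeq table (build GRCm38.p6), where the hairpins lie on the minus strand of chromosome 6 at chr6:30169668-30169737 (Mir183), chr6:30169446-30169551 (Mir96) and chr6:30165918-30165992 (Mir182). Read in the direction of transcription, 116 bases separate Mir183 from Mir96 and 3453 bases separate Mir96 from Mir182. The whole cluster spans 3820 bases within the long non-coding RNA gene Mirc35hg, between the protein-coding genes Nrf1 and Ube2h. The hairpins, with the 5p strand and then the 3p strand in capitals, are as follows.
miR-183 hairpin: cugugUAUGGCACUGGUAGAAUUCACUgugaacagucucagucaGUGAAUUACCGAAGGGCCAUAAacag
miR-96 hairpin: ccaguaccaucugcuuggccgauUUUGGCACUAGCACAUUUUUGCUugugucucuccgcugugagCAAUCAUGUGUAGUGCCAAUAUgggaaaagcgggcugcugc
miR-182 hairpin: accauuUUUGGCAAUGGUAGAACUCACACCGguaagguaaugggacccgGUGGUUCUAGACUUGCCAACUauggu

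In the miRBase version 14 names used by the screen, the unstarred names stand for the 5p strands and miR-183* for the 3p strand of the miR-183 hairpin. The deposited tables give names only, so the sequence of each assay was not checked. The mature strands, with the seed (bases 2 to 8) in capitals, are as follows.
miR-182-5p: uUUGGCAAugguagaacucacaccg
miR-96-5p: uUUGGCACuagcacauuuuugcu
miR-183-5p: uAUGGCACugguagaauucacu
miR-183-3p: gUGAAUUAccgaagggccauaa

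miR-182 and miR-96 had the same bases 2 to 7, UUGGCA, and differed within the seed by A8C, counted from the 5′ end with the miR-182 base first. Of 1679 mature mouse microRNAs in the table, 1 more has these 6 bases, miR-1271-5p, and no assay of that name was on the plates. miR-183 differed from miR-182 in the seed by U2A and A8C and from miR-96 by A2U, written with the miR-183 base first in the last case. No other mature microRNA in the table has its bases 2 to 7, AUGGCA. Over the whole strand, seed included, miR-182 and miR-183 were identical at 18 of 22 positions. miR-182 and miR-96 were identical at 12 of 23, and miR-183 and miR-96 at 13 of 22. Whether the assays tell miR-182 from miR-183 was not tested.

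All 18 wells of the 3 microRNAs gave a Ct, the PCR cycle at which product is detected, so that a Ct later by 1 stands for about 2 times less RNA. miR-182 was detected first in every sample, then miR-183, then miR-96. The Ct of miR-182 was 31.08 and 30.74 in the runs of NSCs, 29.33 and 29.11 in MEFs, and 28.30 and 28.31 in ESCs. That of miR-183 was 32.16 and 31.74 in NSCs, 30.14 and 30.69 in MEFs, and 29.57 and 29.93 in ESCs. miR-96 came later, at 35.23 and 34.63 in NSCs, 33.50 and 35.35 in MEFs, and 33.21 and 33.54 in ESCs. All 6 wells of miR-96 were thus above a Ct of 32, the limit above which a level was taken as too low for a call. The gap between its MEF runs was 1.85 cycles, against a median gap of 0.52 cycles for MEF microRNAs above that limit. For miR-182 and miR-183 the runs lay 0.02 to 0.54 cycles apart. Since each assay has its own primer, the Ct order of the 3 microRNAs is not an order of their amounts.

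The samples were put on a common scale with the small RNAs U6, RNU43 and U1, whose mean Ct on the same plate in the same sample was subtracted. The result is a delta Ct, in cycles, and a low delta Ct is a high level. The reference RNAs on plate 1, which held all 3 microRNAs, did not shift alike. U6 and U1 came 0.93 and 1.10 cycles earlier in NSCs than in MEFs, whereas RNU43 came 0.78 cycles later. In ESCs, where RNU43 had 1 run, the 3 came 2.59, 2.31 and 0.99 cycles later than in NSCs, in the order U6, U1 and RNU43. Each comparison is therefore also given with other references where these change its calls or its size.

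The sample labels fit the marker microRNAs in part. miR-9 and miR-9*, known from neural progenitors, were called higher in NSCs than in either ESCs or MEFs, and 6 of 6 strands picked as markers from the miR-290 and miR-302 clusters of pluripotent cells were called higher in ESCs than in MEFs. Not every strand of these clusters was, as miR-290-5p and miR-291a-5p, at log2 folds of 1.08 and 0.28, were not called. miR-367, at 4.26 ± 1.89, missed the call by its Ct of 33.50 in ESCs. Of 5 microRNAs typical of fibroblasts, 4 were called lower in NSCs than in MEFs, but only miR-199a-5p was called lower in ESCs than in MEFs. All 5 were measured in ESCs, at delta Ct values of 0.78 to 3.79, against -0.32 to 2.58 in MEFs and 3.99 to 12.1 in NSCs. The part of this fibroblast signal in the ESC values below was not tested. In such bulk samples, fewer cells of a type and less RNA per cell cannot be told apart.

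**Figure D1:**
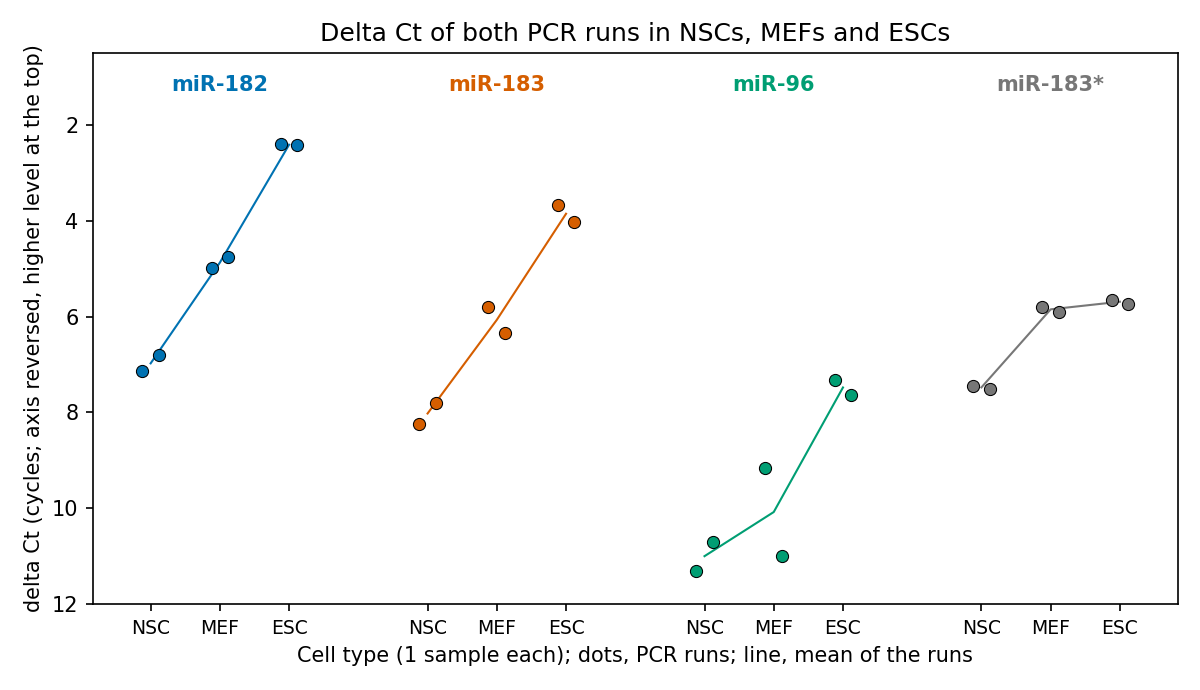
Delta Ct (cycles, axis reversed so that a high level is at the top) of miR-182, miR-183, miR-96 and miR-183* in NSCs, MEFs and ESCs, with 1 sample per cell type, dots for the PCR runs and a line through their means. The runs of miR-182 and miR-183 stood apart in all 3 cell types, whereas the MEF runs of miR-96, at 9.16 and 11.00, reached into the NSC range of 10.70 to 11.30.

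By mean delta Ct, the cluster had its lowest level in NSCs and its highest in ESCs. For miR-182, the mean delta Ct was 6.98 in NSCs, 4.87 in MEFs and 2.41 in ESCs. For miR-183 it was 8.02, 6.07 and 3.85, and for miR-96 it was 11.00, 10.08 and 7.48, in the same order of samples. The runs of miR-182 and of miR-183 did not overlap between any samples, as the plot of delta Ct by cell type shows. miR-96 was separated between ESCs and each other sample, but its runs in MEFs and NSCs overlapped. The order ESCs above MEFs above NSCs with separate runs was found for 102 of 677 microRNAs measured in all samples, which is 15.1%. It therefore was no rare pattern in the screen, and 2 of the 3 members had it. For miR-182 and miR-183 it also held with U6, RNU43 or U1 alone, with the mean of microRNAs and with miR-16 as the reference.

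Against ESCs, all 3 microRNAs were lower in NSCs. The log2 fold of NSCs over ESCs was -4.56 ± 0.17 for miR-182, -4.17 ± 0.28 for miR-183 and -3.52 ± 0.35 for miR-96. These are levels 23.6, 18.0 and 11.5 times lower. The error is that of the means of 2 runs, combined over the pair of samples, and it leaves out the error of the reference RNAs. It is a PCR error and says nothing of the spread between cultures. With 1 sample per cell type, no test across samples was possible. miR-182 and miR-183 were called lower. A call needs at least a 4-fold difference, runs that are fully apart, and, in the sample with the higher level, a Ct no later than 32 on average. miR-96 missed the call by its Ct of 33.37 in ESCs. Over the screen, 101 of 678 microRNAs were called lower in NSCs than in ESCs, or 14.9%, and 20 were called higher, or 2.95%. RNU43 alone turned this split into 76 lower and 56 higher, and the mean of microRNAs as the reference into 85 lower and 40 higher. By log2 fold, miR-182 stood at place 57 from the lowest of the 678, miR-183 at 69 and miR-96 at 83. The median of the 3 was -4.17, against -0.42 for all microRNAs. With U6, RNU43 or U1 alone, the log2 folds ranged from -5.19 to -3.20 for miR-182 and miR-183, both of which remained called with each of them. miR-96 was at -2.55 with RNU43 alone and at -2.87 with the mean of microRNAs.

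The deposited delta Ct column of ESCs on plate 1 has 6.90 cycles more subtracted than in the other columns, in all 356 microRNAs measured. With that column as it stands, the log2 folds of NSCs over ESCs were -11.46, -11.07 and -10.42 for miR-182, miR-183 and miR-96. The deposited delta Ct was therefore not used for the main values.

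Against MEFs, NSCs differed less. The log2 fold of NSCs over MEFs was -2.10 ± 0.20 for miR-182, -1.95 ± 0.34 for miR-183 and -0.92 ± 0.97 for miR-96. miR-182, at a level 4.30 times lower, was called lower, and miR-183, at 3.87 times lower, was just short of the 4-fold limit. For miR-96 the difference was within the PCR error. In the screen 95 of 685 microRNAs, or 13.9%, were called lower in NSCs than in MEFs and 12, or 1.75%, were called higher. The split was 60 lower and 50 higher with RNU43 alone, and 73 lower and 21 higher with the mean of microRNAs. The median log2 fold was -0.48 over all microRNAs and -1.95 over the 3. miR-182 was also among the 63 of 677 microRNAs (9.31%) called lower in NSCs than in both other samples. These comparisons share the NSC sample. With RNU43 alone, none of the 3 was called, at log2 folds of -0.91, -0.76 and 0.28 for miR-182, miR-183 and miR-96, while with U6 or U1 alone both miR-182 and miR-183 were called, at -2.79 to -2.47.

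All 3 microRNAs had a higher mean level in ESCs than in MEFs. The log2 fold of ESCs over MEFs was 2.46 ± 0.11 for miR-182, 2.21 ± 0.33 for miR-183 and 2.60 ± 0.94 for miR-96, or 5.50, 4.64 and 6.06 times higher in ESCs. miR-182 and miR-183 were called higher, among 36 of 679 microRNAs in the screen, or 5.3%, while 22, or 3.24%, were called lower. With U1 alone the screen had 30 higher and 35 lower. miR-96 was not called because of its late Ct, and its log2 fold was 1.84 with the first run alone and 3.36 with the second. With U1 alone, miR-183 fell to 1.87 and lost its call. Fibroblast markers differed in the other direction, at a median log2 fold of -1.13 for ESCs over MEFs.

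The MEF values carry a doubt that the deposited tables alone do not settle. The supplementary table of the paper holds the same NSC and ESC values for these 3 microRNAs but other MEF values, which were not used here. In that table each of the 3 has a higher level in MEFs than in ESCs and NSCs. The place of MEFs between NSCs and ESCs thus holds for the deposited Ct values only, whereas the level of miR-182 and miR-183 was lowest in NSCs with either set. For miR-96, the deposited runs of NSCs and MEFs overlap.

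**Figure D2:**
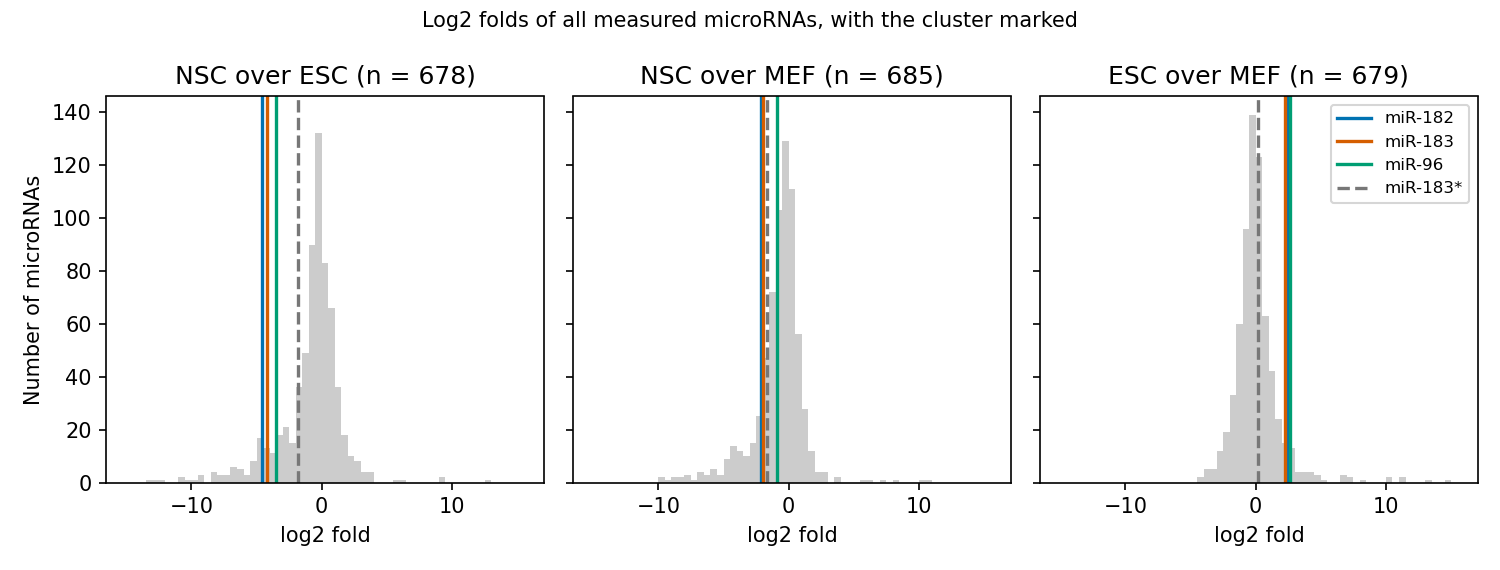
Number of microRNAs by log2 fold (bins of 0.5) for NSCs over ESCs, NSCs over MEFs and ESCs over MEFs, with lines at miR-182, miR-183, miR-96 and miR-183* (dashed). The 3 unstarred lines lie close together in the first panel, at -4.56 to -3.52, and in the last, at 2.21 to 2.60. In these panels miR-183* lies nearer to the bulk of microRNAs, at -1.79 and 0.16. In the middle panel miR-183*, at -1.63, lies between miR-183 at -1.95 and miR-96 at -0.92.

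Another reference RNA shifts every microRNA on plate 1 by the same amount, so the distance of the cluster from the median of plate 1 does not depend on it. Measured from that median, the median of the 3 log2 folds was -3.71 for NSCs over ESCs, -1.31 for NSCs over MEFs and 2.71 for ESCs over MEFs. The same holds for the gaps between members in a sample. miR-183 came 1.05 ± 0.27 cycles after miR-182 in NSCs, 1.20 ± 0.29 in MEFs and 1.44 ± 0.18 in ESCs. The largest change of this gap, 0.40 ± 0.32 cycles fewer in NSCs than in ESCs, was about the size of its PCR error, so miR-182 and miR-183 kept their spacing across the samples within about that error. miR-96 came 4.02 ± 0.35 cycles after miR-182 in NSCs, 5.21 ± 0.93 in MEFs and 5.07 ± 0.17 in ESCs. Here the gap was -1.04 ± 0.38 cycles in NSCs relative to ESCs, which is 1.04 cycles narrower and beyond the PCR error. The measured fall of miR-96 from ESCs to NSCs was thus smaller than that of miR-182. It was measured at Ct values of 33.37 and 34.93, both too late for a call, and whether the late Ct plays a part was not tested. Between ESCs and MEFs the gap of miR-96 to miR-182 changed by -0.14 ± 0.94 cycles, within the PCR error.

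miR-183* measures the other strand of the miR-183 hairpin and was on plate 2. The tables used here have no star row for miR-182 or miR-96. The Ct of miR-183* was 31.52 and 31.57 in NSCs, 30.18 and 30.30 in MEFs, and 31.80 and 31.89 in ESCs. Its delta Ct was 7.48 in NSCs, 5.85 in MEFs and 5.69 in ESCs. miR-183* had its lowest level in NSCs too. Its log2 fold of NSCs was -1.79 ± 0.05 relative to ESCs and -1.63 ± 0.06 relative to MEFs, both short of the 4-fold limit. With RNU43 alone these became -0.81 and -0.51. Between ESCs and MEFs it was nearly level, at 0.16 ± 0.07, which became -0.01 with U1 alone and -0.12 with the mean of microRNAs as the reference. With the 3 references its runs still had the order ESCs above MEFs above NSCs without overlap, which needs no minimum fold. For NSCs over MEFs, the strands of the hairpin differed from each other by -0.32 ± 0.35 (miR-183 minus miR-183*, log2), within the PCR error. For NSCs over ESCs they differed by -2.38 ± 0.28, and between ESCs and MEFs by 2.06 ± 0.33. With each of the reference RNAs alone, those 2 differences stayed at -2.54 to -2.22 and at 1.89 to 2.14. The strands were on different plates, each with its own reference wells, so the difference includes the plates.

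The miR-200 family, known for keeping epithelial cells in their state and also found in pluripotent cells, was set beside the cluster, with 9 assays. Of these, miR-200b and miR-200c were called lower in NSCs than in ESCs and higher in ESCs than in MEFs. Over the screen, the shares of such calls were 14.9% and 5.3%. miR-200a and miR-429 missed both calls only by their Ct in ESCs, 33.52 and 32.15. miR-141 missed the former in the same way, at 32.71. None of the 9 was called between NSCs and MEFs. The 5 unstarred members had mean Ct values above 32 in both of these samples, so the Ct limit allowed no call for them. The log2 folds of the 5 unstarred members over ESCs ranged from -6.74 to -2.25, with a median of -5.45, and those of the 3 cluster members lie within that range. Over MEFs the median of the 5 was -0.74, against -1.95 for the cluster. miR-200b, for example, was at -6.23 ± 0.24 over ESCs but at -1.58 ± 0.49 over MEFs, and miR-200c at -5.45 ± 0.61 and 1.71 ± 1.15. The star strands of this family, on plate 2 like miR-183*, were also nearer to 0, at -1.40 to -0.13 for NSCs over ESCs. The differences between the strands of miR-200b and miR-200a in that comparison were -4.84 ± 0.28 and -5.90 ± 0.76, larger than that of miR-183, although miR-200a had a Ct of 38.3 in NSCs. That of miR-141 was smaller, at -1.02 ± 0.57.

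**Figure D3:**
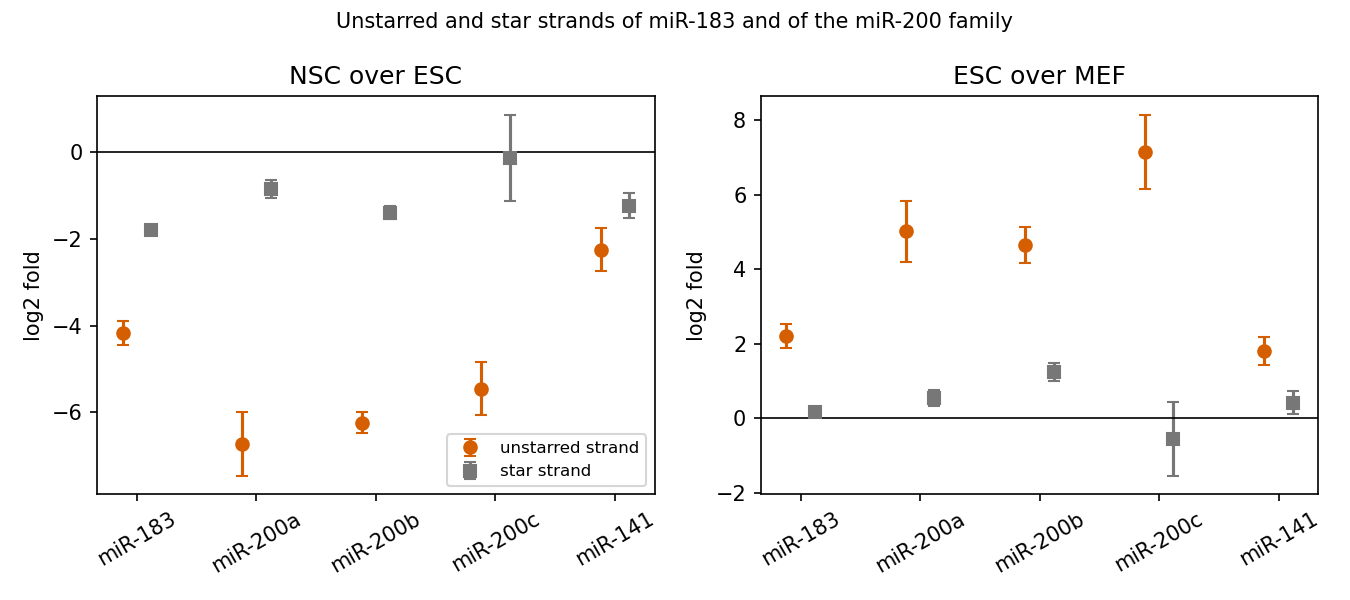
Log2 fold of NSCs over ESCs and of ESCs over MEFs for the unstarred strand (circles, plate 1) and the star strand (squares, plate 2) of miR-183, miR-200a, miR-200b, miR-200c and miR-141. Bars are the PCR error between runs, and 1 sample per cell type was measured. In each hairpin the unstarred strand lies farther from 0, as for miR-183 at -4.17 against -1.79.

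A list of 4 other microRNAs was set beside the cluster for its link to the eye. miR-204 and miR-211, known from the retina and its pigment epithelium, miR-184, known from the lens and cornea, and miR-124, a neuronal microRNA, were measured in all samples, and for none of the 4 was a call made in any of the 3 comparisons. With 14.9% of all microRNAs called lower in NSCs than in ESCs and 13.9% lower than in MEFs, a count of 0 of 4 is near the background and no result about these microRNAs. Over ESCs their log2 folds in NSCs ranged from -0.83 to 1.10. miR-204 was the lowest of them, at -0.83 ± 0.32 over ESCs and -1.59 ± 0.30 over MEFs.

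The microRNAs with the most similar profile were found by the distance between delta Ct values over the 3 cell types, each centred on its own mean, among 524 other unstarred microRNAs measured in all 6 wells. The nearest was miR-292-5p, a strand from the miR-290 cluster of pluripotent cells, at a distance of 0.54 cycles from the mean profile of the 3. Next were miR-466d-3p at 0.57, miR-376b at 0.71, miR-7a at 0.77 and miR-7b at 0.80 cycles. The members themselves lay 0.21 (miR-183), 0.38 (miR-182) and 0.55 cycles (miR-96) from their mean, so miR-96 was no nearer than miR-292-5p. Each member is part of that mean, which makes its own distance smaller than a like measure for the other microRNAs. The 2 kinds of distance therefore do not show how tight the cluster is. The log2 folds of miR-292-5p were -3.35 ± 0.16 for NSCs over ESCs, -1.11 ± 0.16 for NSCs over MEFs and 2.24 ± 0.03 for ESCs over MEFs. This is a likeness over 3 samples and a description only.

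**Figure D4:**
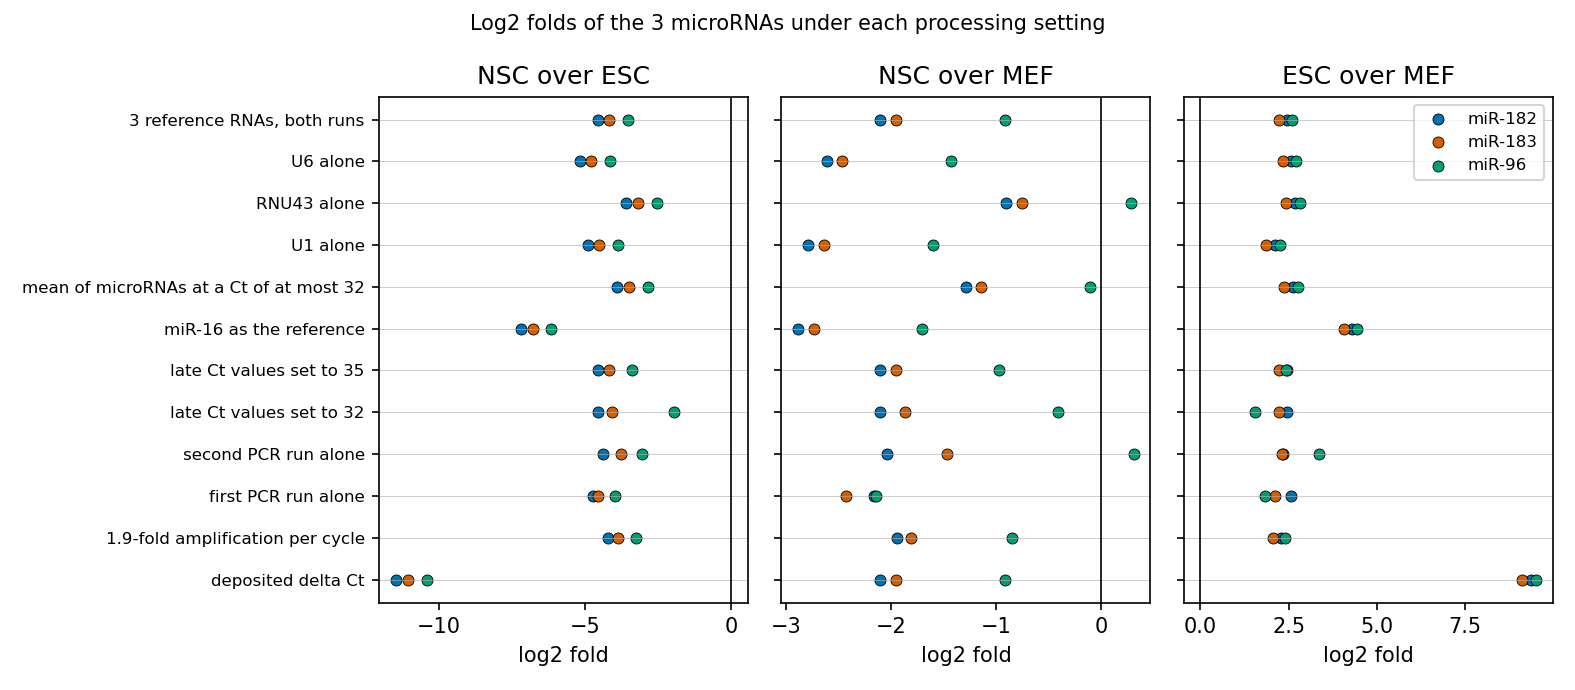
Log2 folds of miR-182, miR-183 and miR-96 for the 3 comparisons (panels with separate horizontal scales) with the 3 reference RNAs and both runs (top) and under each of 11 alternatives. All values lie below 0 for NSCs over ESCs and above 0 for ESCs over MEFs, and miR-96 crosses 0 for NSCs over MEFs with RNU43 alone (0.28) and with the second PCR run alone (0.31). The deposited MEF values were used throughout, and the other MEF values, with which all 3 are higher in MEFs than in ESCs, are not shown.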

How the data were processed

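After a poly-A tail was added to small RNAs, cDNA was made from an oligo-dT adaptor and amplified with SYBR Green, per the labels over 40 cycles, on 2 plates with 380 and 329 microRNA assays. The deposited tables hold a Ct for every well and run (the main values here), a delta Ct per sample in cycles, and their own fold changes and p-values between cell types, which were not used. The threshold behind the Ct was not given in the sources used here. Of the no-template wells, 0 of 12 had a Ct. Ct values above 40 were kept (29 wells), and wells with no value were left out. Between 680 and 700 microRNAs were measured per sample, with a median gap between runs of 0.15 to 0.17 cycles for microRNAs at or before a Ct of 32 and 0.52 to 0.65 cycles for later ones.

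A log2 fold is the difference of 2 delta Ct values, at 2-fold amplification per cycle. With 1 sample per cell type, calls rest on fold, run separation and Ct, and no p-value was computed. The computation was tested on simulated Ct values with known changes. These were all earlier than the Ct limit of 32, so the test does not cover late Ct values such as those of miR-96. The members, lists and call rule were chosen with earlier results of these data known. Named microRNAs are the members, star rows of their hairpins, assays with shared bases 2 to 7, the miR-200 family, 4 retina-linked microRNAs, the 5 nearest profiles and the markers. The alternatives were 11 settings of the delta Ct (each reference RNA, the mean of 165 microRNAs of plate 1, miR-16, late Ct values at 35 or 32, each run alone, 1.9-fold amplification, the deposited delta Ct) and 2 of the call rule (2-fold, no Ct limit). Sequences are from RefSeq tables of GRCm38.p6. Python 3.11.15, pandas 2.3.3, numpy 2.4.6 and matplotlib 3.10.9 were used.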

Additional observations from a re-analysis of the deposited data

How the results depend on the processing

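With 1 sample per cell type the values describe these samples, and low levels, above all those of miR-96, limit the precision. For NSCs over ESCs, the median log2 fold of the 3 microRNAs was -4.80 with U6 alone, -3.20 with RNU43 alone, -3.51 with the mean of microRNAs, -6.80 with miR-16 subtracted and -11.07 by the deposited delta Ct. For ESCs over MEFs it was 2.69 with RNU43 alone, 2.12 with U1 alone, 2.62 with the mean of microRNAs, 4.31 with miR-16, 2.21 with late Ct values set to 32, 2.28 with 1.9-fold amplification and 9.36 with the deposited delta Ct. For NSCs over MEFs it was -2.47 with U6 alone, -0.76 with RNU43 alone, -2.64 with U1 alone, -1.14 with the mean of microRNAs and -2.74 with miR-16. The calls over all microRNAs, 20 higher and 101 lower for NSCs over ESCs, became 5 and 334 with miR-16 and 6 and 241 with the deposited delta Ct. For ESCs over MEFs they went from 36 and 22 to 161 and 1 and to 225 and 8. With miR-16 the median of all plate 1 microRNAs moved too, by -2.63, 1.85 and -0.78 in these comparisons. Each PCR run alone gave -4.56 to -3.78, 2.12 to 2.34 and -2.16 to -1.47. The number called lower in NSCs than in MEFs, 1 of 3, was 2 with U6 alone, U1 alone, miR-16 or a 2-fold limit, 0 with RNU43 alone, the mean of microRNAs or 1.9-fold amplification, and 1 to 2 with a run alone. The number called higher in ESCs than in MEFs, 2 of 3, was 1 with U1 alone and 3 without the Ct limit. The number called lower in NSCs than in ESCs was 2 in all settings but 1, and 3 without the Ct limit. miR-96 turned from -0.92 to 0.28 with RNU43 alone and to 0.31 with the second run alone for NSCs over MEFs, against -2.15 with the first. At a limit of 32 its wells are all equal, so that its fold there is only that of the reference RNAs. Of 99 values of single microRNAs under the alternatives, 59 moved by less than the SD between runs and 38 by more, all without changing sign. The other 2, both of miR-96, changed sign and also moved by less than that SD, which was 1.38 there. This SD combines both samples compared, so a run alone can never move a value by more than it. Some settings also leave a value as it is, such as a late limit for an early Ct. The 59 include such values and are no measure of stability. Every setting used the deposited MEF values. With the other MEF values, from the supplement of the paper, all 3 microRNAs are higher in MEFs than in ESCs. No paired analysis was possible because each cell type has 1 sample.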
